A study of Mus musculus with 4 samples.

Results

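The genes described here belong to the response to endoplasmic reticulum (ER) stress and to the integrated stress response. They were 35 genes given by symbol, 22 of ER protein folding and degradation and 13 of the Atf4 and Chop pathway. The list was drawn up with earlier results of these data known, although membership itself rests on the symbol and on no measured value. Of the 35 genes, 34 had a probe whose accession mapped to the symbol, 54 probes in all, and Atf6 had no matched probe. After the filter on dim probes, 32 of them (21 and 11) were among the 16018 genes or transcripts compared between knockout and wild type. The other 2, Trib3 and Chac1, were not well above background in the Cy5 channel of any array.

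The study used 4 Agilent two-colour arrays on 1 slide to compare collecting duct and ureteric bud cells of mice at postnatal day 1. The cells carried the HoxB7CreEGFP transgene, in which the HoxB7 promoter drives Cre and a green fluorescent protein in the ureteric bud lineage, and EGFP+ cells were sorted by flow cytometry. Knockout cells were HoxB7CreEGFP+; PRR flox/flox, where PRR is the (pro)renin receptor, encoded by Atp6ap2. Wild-type cells were CreEGFP+ PRR+/+, so they expressed the same Cre and EGFP. Source names put knockout RNA in Cy5 against wild-type pool 1 (array KO_vs_WT replicate 1) or pool 2 (KO_vs_WT replicate 2) in Cy3, and pool 1 or pool 2 in both dyes on the arrays WT_self replicates 1 and 2. The sample titles name the genotypes the other way round, and the description field swaps pool 1 and pool 2 on both WT_self arrays. The source names were followed here, and every direction below turns if the titles are right. How many mice each pool held, and whether the knockout RNA of the arrays came from separate pools, was not given in the sources used here, so p-values measure only the spread between arrays, which may be technical.

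The ER folds and modifies proteins of the secretory pathway and the cell surface, which collecting duct cells make as channels, pumps and receptors. When unfolded proteins gather in the ER, the sensors Ire1, Atf6 and Perk act: Ire1 splices the mRNA of the transcription factor Xbp1, cleaved Atf6 enters the nucleus, and Perk phosphorylates the translation factor eIF2 alpha. Xbp1 and Atf6 then raise transcription of chaperones and of genes that remove misfolded proteins. Phosphorylated eIF2 alpha, also made by kinases that sense amino acid shortage, heme shortage or double-stranded RNA, lowers general translation but lets Atf4 mRNA be translated. Atf4 induces amino acid synthesis genes and Ddit3, whose product Chop takes part in cell death under lasting stress. These arrays measured total mRNA of each gene, not the splicing of Xbp1, cleavage of Atf6 or translation of Atf4, where most of the control of those 3 genes lies.

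Both arms act through DNA elements near the start of transcription, which are shown for the members whose promoter holds one; many members of both groups hold neither. The ER stress response element, searched as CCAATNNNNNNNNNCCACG on both strands of RefSeq promoters (GRCm38.p6, 250 bases before to 50 after the gene's start), was found in 9 of the 18 ER folding and degradation genes with a promoter in the table (50%) and in 0 of the 13 Atf4 and Chop pathway genes. Of all 27025 genes with a promoter of this length in the table, 37 held it (0.137%). The sequences below are on the strand of the gene, 5′ to 3′, with the match in capitals and 10 bases on either side.
Hspa5, chr2:34772015-34772053: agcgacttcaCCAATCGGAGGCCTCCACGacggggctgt
Hsp90b1, chr10:86705628-86705666: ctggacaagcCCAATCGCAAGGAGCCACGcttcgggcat
Hsp90b1, chr10:86705523-86705561: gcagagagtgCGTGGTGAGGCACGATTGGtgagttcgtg
Calr, chr8:84847065-84847103: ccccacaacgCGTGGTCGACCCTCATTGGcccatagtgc
Dnajc3, chr14:118937817-118937855: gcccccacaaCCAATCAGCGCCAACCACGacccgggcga
Creld2, chr15:88819510-88819548: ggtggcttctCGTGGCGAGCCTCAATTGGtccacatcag
Syvn1, chr19:6046522-6046560: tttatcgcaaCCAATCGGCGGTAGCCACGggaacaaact
The match lay 65 to 47 bases before the start in Hspa5 and 44 to 26 bases before it in Syvn1. Hsp90b1 held a pair of matches in opposite orientation, and those of Calr and Creld2 were on the reverse strand. Canx, Pdia6 and Derl3 held the remaining matches.

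The core of the C/EBP-ATF response element, the site bound by Atf4 or Chop with a C/EBP partner, was searched as TGATGNAA on both strands. It was found in 5 of the 13 Atf4 and Chop pathway genes (38.5%), in 1 of the 18 ER genes (5.56%) and in 1219 of the 27025 genes (4.51%). The match in Trib3 lay after the start. Vldlr has more than 1 start in the promoter table, and its match lay before the later of them, inside the gene as annotated. The others lay before the start.
Atf3, chr1:191183426-191183453: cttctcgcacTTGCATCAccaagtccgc
Asns, chr6:7693215-7693242: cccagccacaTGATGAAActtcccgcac
Chac1, chr2:119351039-119351066: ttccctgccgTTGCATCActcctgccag
Vldlr, chr19:27216810-27216837: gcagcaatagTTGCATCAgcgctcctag
Herpud1, chr8:94386307-94386334: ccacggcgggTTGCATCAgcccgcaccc
The same 8 letters, TTGCATCA on the gene's strand, stood in Atf3, Chac1, Vldlr and Herpud1. A match is a string of letters and was not tested for binding.

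Each array measured 41174 probes that were not controls, of which 18405 to 22692 were well above background in Cy5 and none was saturated. In Cy3 the number was 14918 to 18551 on 3 arrays but 28 on KO_vs_WT replicate 1, so knockout and wild type were compared in Cy5, with both genotypes measured on the same array only on KO_vs_WT replicate 2. Levels below are log2 Cy5 intensities after background correction and quantile normalization, and differences are knockout minus wild type from limma with 2 arrays on each side. The targeted gene Atp6ap2 (chrX:12587759-12617051) read 8.08 and 7.71 on the knockout arrays and 8.38 and 8.51 on the wild-type arrays, which put the knockout at -0.55 ± 0.17 (SE) with a limma adjusted p of 0.807. The difference was -0.61 without WT_self replicate 1 and -0.48 without WT_self replicate 2. On KO_vs_WT replicate 2 the log2 ratio of knockout over pool 2 was -0.63, with 0.12 and 0.25 for the same RNA in both dyes. Whether its probe lies in the floxed part was not given in the sources used here. All 10 principal cell and 13 ureteric bud markers of the labelled cell types entered the comparison, among them Aqp2, Fxyd4 and Hoxb7.

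In the fit across all 16018 genes, 0 passed at an adjusted p below 0.05 in either direction (0%), and the members had adjusted p-values of 0.807 or more. At an unadjusted p below 0.05, 480 genes were higher in the knockout (3%) and 184 lower (1.15%). Among the 32 members, 4 were higher by that measure (Dnajb9, Ddit3, Ddit4 and Atf3) and 2 lower (Pdia3 and Pdia4). Over all genes 664 had an unadjusted limma p below 0.05, fewer than the 801 expected if no gene differed. Leaving out WT_self replicate 1, which left pool 2 as the only wild type, was the 1 alternative that gave calls, 4466 of 16440 genes (27.2%) with 9 of the 32 members among them (28.1%), a share near that of all genes. What follows gives levels and differences of the members, none of which passed the test on all 4 arrays.

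The 2 groups of members lay on opposite sides of 0 in the quantile-normalized values. Of the 21 ER folding and degradation genes, 14 had a negative difference and 7 a positive one, with a median of -0.12. Of the 11 Atf4 and Chop pathway genes, 7 were positive and 4 negative, with a median of 0.18. Over all genes the median was 0.02, and 54.7% were positive. The side of the ER genes rested on the scaling: with the 75th percentile of each array set equal in place of quantile normalization, 13 of the 21 were positive and the median was 0.02, against -0.02 over all genes, while the Atf4 and Chop median was 0.31. The Atf4 and Chop median in turn was -0.02 when log ratios of all 4 arrays were compared, among them the array with 28 Cy3 probes above background.

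Both knockout arrays read above both wild-type arrays in 3 of the 21 ER genes (14.3%) and in 5 of the 11 Atf4 and Chop genes (45.5%), and in 21.8% of all genes. Both read below both wild-type arrays in 8 ER genes (38.1%) and 2 Atf4 and Chop genes (18.2%), and in 17.7% of all genes. With the 75th percentile scaling the ER counts were 6 higher and 1 lower (Derl1), and the Atf4 and Chop counts 4 higher and 0 lower, against 22.2% and 19.6% of all genes. The groups were also compared under each of 4 settings of Cy5. Offset 50, offset 16 and Agilent's processed signal were each quantile-normalized. The last setting was offset 50 with the 75th percentile scaling, so only that one changed the scaling. Under all 4, Xbp1 and Edem1 stayed apart on the higher side, 9.52% of the ER genes. Ddit4 and Atf4 did so too, 18.2% of the Atf4 and Chop genes, where 10.3% of all genes did. Derl1 was the 1 member that stayed apart on the lower side, 4.76% of the ER genes, where 8.26% of all genes did. Neither ER share was above that of all genes.

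**Figure D1:**
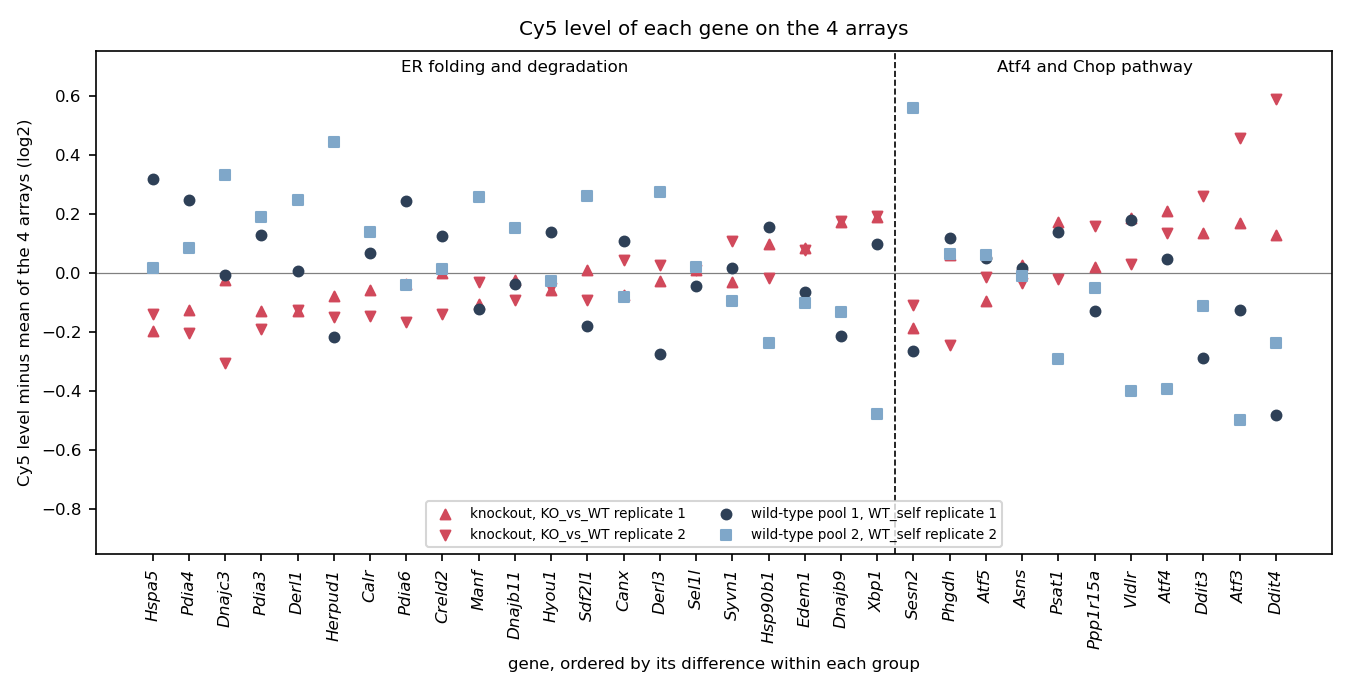
Cy5 level of the 32 measured genes on each array, minus the mean of the gene's 4 arrays (log2, vertical axis), with genes ordered by their difference within each group (horizontal axis). Red triangles are the knockout arrays, dark circles wild-type pool 1 and pale squares pool 2; the triangles lie above both wild-type symbols for Ddit4, Atf3, Ddit3 and Atf4, and pool 2 lies far from pool 1 for Sesn2, Herpud1 and Xbp1.

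Among the ER chaperones, Hspa5 (chr2:34772090-34776529), which encodes BiP, the Hsp70 chaperone that also holds the stress sensors inactive, read lower on both knockout arrays. It read 11.17 and 11.23 on the knockout arrays, 11.68 in pool 1 and 11.38 in pool 2. The groups did not overlap after quantile normalization but did with the 75th percentile scaling, where the difference was -0.12. After quantile normalization it was -0.34 ± 0.15 (SE; limma adjusted p = 0.807), or 0.793 of the wild-type level. It was larger against pool 1 (-0.49) than against pool 2 (-0.18). On the shared array, however, knockout over pool 2 gave a log2 ratio of 0.00, where the same RNA in both dyes gave 0.22 and 0.16.

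Hsp90b1, the ER Hsp90 known as Grp94, did not separate the groups. Its brightest probe read 12.24 and 12.12 in the knockout and 12.30 and 11.90 in the wild-type pools, a difference of 0.08 ± 0.17 (SE), while its other probe gave -0.25 and Agilent's processed signal -0.14. Calr, the lectin chaperone calreticulin, was lower on both knockout arrays (11.20 and 11.11 against 11.33 and 11.40), with a difference of -0.21 ± 0.11 (SE). Its membrane-bound relative Canx, calnexin, differed by -0.03 and overlapped. Hyou1, an Hsp110-type exchange factor for BiP, read 8.68 and 8.69 in the knockout and 8.88 and 8.71 in the wild type. The secreted or ER-held stress proteins Creld2, Manf and Sdf2l1 differed by -0.14, -0.13 and -0.08, and among these only Creld2 had groups that did not overlap. With the 75th percentile scaling Canx, Hyou1, Creld2, Manf and Sdf2l1 were on the positive side, at 0.01 to 0.16. Calr was then at -0.02 and its groups overlapped.

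The 3 protein disulfide isomerases among the members, enzymes that form and exchange disulfide bonds in the ER, were on the negative side after quantile normalization, while Pdia6 was at 0.02 with the 75th percentile scaling. Pdia4 read 8.30 and 8.22 in the knockout and 8.67 and 8.51 in the wild type, a difference of -0.33 ± 0.12 (SE; unadjusted p = 0.0457, limma adjusted p = 0.807). Pdia3, which works with calreticulin and calnexin on glycoproteins, read 9.77 and 9.71 against 10.02 and 10.08. Its difference of -0.32 ± 0.11 (SE) was nearly equal against pool 1 (-0.29) and pool 2 (-0.35), and the shared array gave -0.39 with -0.04 and -0.05 for the same RNA in both dyes. Pdia6 differed by -0.20 but pool 2, at 11.14, met the higher knockout array, also at 11.14. Without WT_self replicate 1, Pdia3 was at -0.35. With the 75th percentile scaling Pdia3 was at -0.12 and Pdia4 at -0.20, and the groups of both genes overlapped.

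Of the J-domain partners of BiP, Dnajb9, a target of spliced Xbp1 that returns BiP to the sensor Ire1, read higher on both knockout arrays. It read 8.02 on both knockout arrays, 7.64 in pool 1 and 7.71 in pool 2, a difference of 0.35 ± 0.11 (SE; unadjusted p = 0.0287, limma adjusted p = 0.807). Its 2 dimmer probes gave 0.02 and -0.22, so the value rested on 1 of 3 probes, the shared array gave -0.06, and with Agilent's processed signal it was at 0.14 and the groups overlapped. Dnajc3, known as p58IPK, read 8.97 and 8.68 in the knockout and 8.98 and 9.32 in the wild type. The higher knockout value lay just under pool 1, with a difference of -0.33 ± 0.18 (SE), and all 3 of its probes that entered were negative. A further Dnajc3 probe lay in a dark patch on WT_self replicate 1 and was left out. Dnajb11 overlapped, at 9.59 and 9.52 against 9.57 and 9.76, and was at 0.09 with the 75th percentile scaling. With that scaling Dnajc3 was at -0.16 and its groups overlapped.

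The genes of ER-associated degradation, which move misfolded proteins out of the ER for proteasomal breakdown, had no common side. Herpud1, a membrane protein of the degradation complex, read 8.31 and 8.24 in the knockout, 8.17 in pool 1 and 8.83 in pool 2. The knockout thus lay between the pools, 0.11 above pool 1 and 0.56 below pool 2. Derl1, a channel-like derlin, read 8.36 on both knockout arrays and 8.49 and 8.73 in the wild type, a difference of -0.25 ± 0.13 (SE), with all 4 probes negative. Its relative Derl3 was at 0.00, with pools at 6.67 and 7.22. Edem1, which recognises misfolded glycoproteins, read higher on both knockout arrays, by 0.16 ± 0.11 (SE). Its dimmer probe that entered gave -0.02, and with the mean of all entered probes Edem1 was at 0.07. Syvn1, the membrane ubiquitin ligase of this route, and its adaptor Sel1l differed by 0.08 and 0.02.

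Xbp1 (chr11:5520641-5525993), whose mRNA Ire1 splices, encodes a transcription factor of the chaperone genes. It read 8.65 on both knockout arrays, 8.56 in pool 1 and 7.98 in pool 2. The groups did not overlap, but the difference was 0.09 against pool 1 and 0.67 against pool 2, and the mean was 0.38 ± 0.22 (SE; limma adjusted p = 0.807). The shared array gave 0.37, with 0.08 and -0.11 for the same RNA in both dyes. The pools differed from each other by more than the knockout differed from pool 1.

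The chaperone and degradation genes with and without the ER stress response element overlapped in their differences. The 9 with a match had a median of -0.14 (range -0.34 to 0.08), with 4 below both wild-type arrays and 0 above, where 17.7% and 21.8% of all genes were. The 9 with a promoter and no match had a median of -0.08 (range -0.33 to 0.38), with 2 below and 3 above, namely Xbp1, Dnajb9 and Edem1. The 4 with a match that lay below were Hspa5, Calr, Dnajc3 and Creld2. These counts are after quantile normalization. With the 75th percentile scaling none of these 4 lay below both wild-type arrays. The 1 ER gene that then did was Derl1, which had no promoter in the table. Canx and Syvn1, which hold a match, were among the 6 ER genes then above both wild-type arrays.

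In the Atf4 and Chop pathway, Ddit4 (chr10:59949675-59951770), which encodes Redd1, an inhibitor of mTORC1, had the largest difference of the 32 members. It read 11.05 and 11.51 on the knockout arrays and 10.44 and 10.69 in the wild-type pools. The groups did not overlap, and the knockout was 1.64 times the wild-type level, a log2 difference of 0.72 ± 0.20 (SE; unadjusted p = 0.0172, limma adjusted p = 0.807). It was higher against pool 1 (0.84) and pool 2 (0.60), and the shared array gave 0.62 with 0.16 and -0.01 for the same RNA in both dyes. The knockout arrays lay 0.46 apart, the widest gap between them among the members.

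Atf3 (chr1:191170296-191183333), a transcription factor that Atf4 and many other stress signals induce, was the next. It read 9.43 and 9.71 in the knockout and 9.13 and 8.76 in the wild type, 1.54 times the wild-type level (0.62 ± 0.19, SE; unadjusted p = 0.0218, limma adjusted p = 0.807). The difference was 0.44 against pool 1 and 0.81 against pool 2, and with Agilent's processed signal it was at 0.39 and the groups overlapped. On the shared array Atf3 had a ratio of 0.77, the highest among the members, with 0.27 and 0.00 for the same RNA in both dyes.

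Ddit3 (chr10:127290793-127296291), which encodes Chop, read 7.24 and 7.37 in the knockout and 6.82 and 6.996 in the wild type, a difference of 0.40 ± 0.13 (SE; unadjusted p = 0.0293, limma adjusted p = 0.807). The groups did not overlap, although with the 75th percentile scaling they did, at a difference of 0.30. The probe was dim, with a background-subtracted Cy5 of only 30.3 in pool 1 and 38.4 in pool 2. The size of the difference moved with the processing, to 0.54 with offset 16 and 0.71 with Agilent's processed signal. The shared-array ratio of Ddit3 was 0.14, where the same RNA in both dyes gave -0.30 and -0.15.

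Atf4 (chr15:80255184-80257545), the pathway's central transcription factor, read 8.89 and 8.82 in the knockout, 8.73 in pool 1 and 8.29 in pool 2. All values of the knockout were above both pools, by 0.12 on average over pool 1 and 0.56 over pool 2, and the difference was 0.34 ± 0.18 (SE; limma adjusted p = 0.807). The pattern over the arrays was that of Xbp1, with pool 1 close to the knockout and pool 2 low. Atf5, another factor translated under eIF2 alpha phosphorylation, read 9.42 and 9.50 against 9.57 and 9.58, a difference of -0.11 ± 0.11 (SE), and was at 0.09 with the 75th percentile scaling.

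Of the further genes of the pathway, Ppp1r15a, which encodes Gadd34, the phosphatase subunit that reverses eIF2 alpha phosphorylation, was higher on both knockout arrays (8.35 and 8.49 against 8.20 and 8.28), but was at -0.03 with Agilent's processed signal. Sesn2, sestrin 2, another inhibitor of mTORC1 signalling, had the widest spread between wild-type pools of all members. It read 8.75 and 8.82 in the knockout, 8.67 in pool 1 and 9.49 in pool 2, so that the knockout was 0.12 above pool 1 and 0.70 below pool 2. Trib3, a pseudokinase induced by Chop, and Chac1, an enzyme that breaks down glutathione, were not well above background in Cy5 on any array.

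The amino acid synthesis genes, which are classic Atf4 targets, did not share a side. Asns, asparagine synthetase, read 8.91 and 8.85 in the knockout and 8.90 and 8.88 in the wild type, a difference of -0.01 ± 0.11 (SE), but was at 0.16 with the 75th percentile scaling and at -0.35, without overlap, with Agilent's processed signal. Phgdh, the first enzyme of serine synthesis, read 12.52 and 12.22 against 12.58 and 12.52, a difference of -0.18 ± 0.15 (SE), with KO_vs_WT replicate 1 level with pool 2. Psat1, the next enzyme of that route, read 9.17 and 8.97 against 9.13 and 8.70, and overlapped. Vldlr, a lipoprotein receptor that Atf4 can induce, read 11.32 and 11.17 against 11.32 and 10.74. Of the 3 measured genes of the pathway with a C/EBP-ATF match, Atf3 was thus at 0.62, Vldlr at 0.22 and Asns at -0.01.

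The difference depended on which wild-type pool stood as the reference. Against pool 1, 9 of 21 ER genes and 6 of 11 Atf4 and Chop genes were positive (medians -0.12 and 0.12), and 48.8% of all genes were. Against pool 2, 6 and 8 were positive (medians -0.18 and 0.31), and 56.8% of all genes were. Both comparisons share the knockout arrays, so they are not independent. Hspa5 and Pdia4 lay farther below pool 1, Dnajc3 and Derl1 farther below pool 2, and Ddit4 and Ddit3 farther above pool 1, while Herpud1 and Sesn2 lay between the pools.

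**Figure D2:**
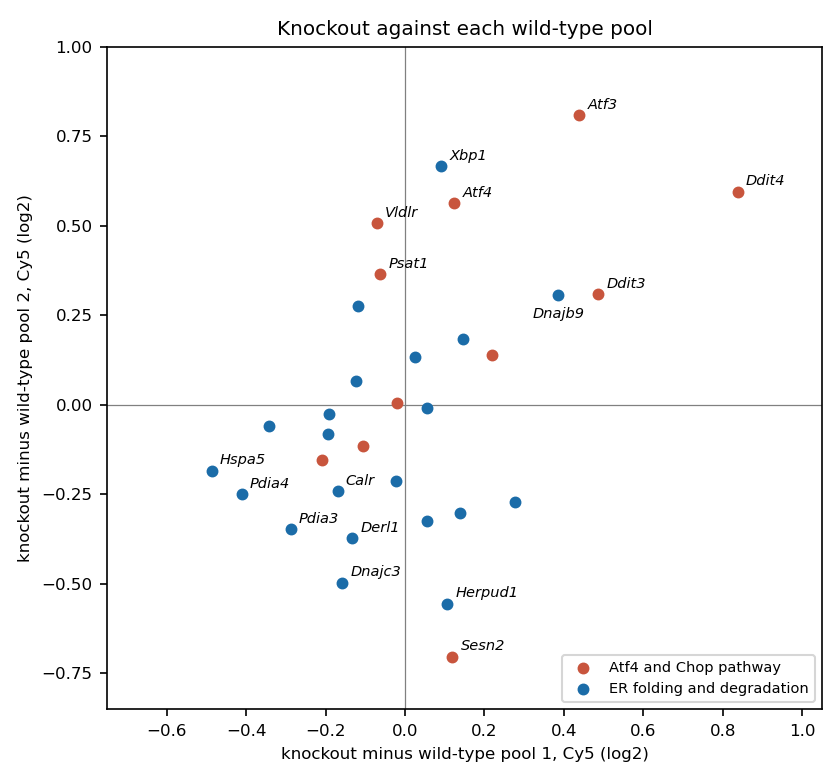
Knockout minus wild-type pool 1 (horizontal) and knockout minus pool 2 (vertical) in Cy5, log2, 1 point per gene, red for the Atf4 and Chop pathway and blue for ER folding and degradation. Ddit4, Atf3, Ddit3 and Dnajb9 lie above 0.3 on both axes, while Sesn2 and Herpud1 lie above pool 1 and below pool 2.

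When WT_self replicate 1 was left out, so that pool 2 alone stood for wild type and its spread was assumed to equal that of the knockout arrays, limma called 2569 genes higher and 1897 lower, 27.2% of the genes tested. Under that fit 9 members passed, 28.1% and so close to the share of all genes: Xbp1 (0.67, adjusted p = 0.00516), Atf3 (0.81, 0.00893), Atf4 (0.56, 0.0104) and Vldlr (0.51, 0.0198) were higher, and Sesn2 (-0.70, 0.00491), Herpud1 (-0.56, 0.0107), Derl1 (-0.37, 0.0347), Dnajc3 (-0.50, 0.0418) and Pdia3 (-0.35, 0.0465) were lower. Leaving out any other array gave 0 calls. Ddit4, Ddit3 and Dnajb9 were not among the 9.

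The wild-type pools could be set against each other in both dyes. Cy5 values came from the WT_self arrays. In Cy3, pool 1 was WT_self replicate 1, and pool 2 was the mean of WT_self replicate 2 and KO_vs_WT replicate 2. In Cy5, pool 2 was below pool 1 in 10 of 21 ER genes and 6 of 11 Atf4 and Chop genes, and in 55.3% of all genes. Among 31 members measured in both dyes, the difference between pools had the same sign in Cy5 and Cy3 in 28 (90.3%), against 83.2% of 11074 genes. Sesn2 was higher in pool 2 by 0.82 in Cy5 and 0.63 in Cy3, and Herpud1 by 0.66 and 0.60. Vldlr was lower in pool 2 by 0.58 and 0.48. The brightest Hsp90b1 probe was lower in pool 2 by 0.39 and 0.59, while its other probe was higher there by 0.36 in Cy5. For Xbp1 (-0.58 and -0.18) and Atf4 (-0.44 and -0.12) the gap was smaller in Cy3, and for Atf3 it was -0.37 in Cy5 and 0.02 in Cy3.

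**Figure D3:**
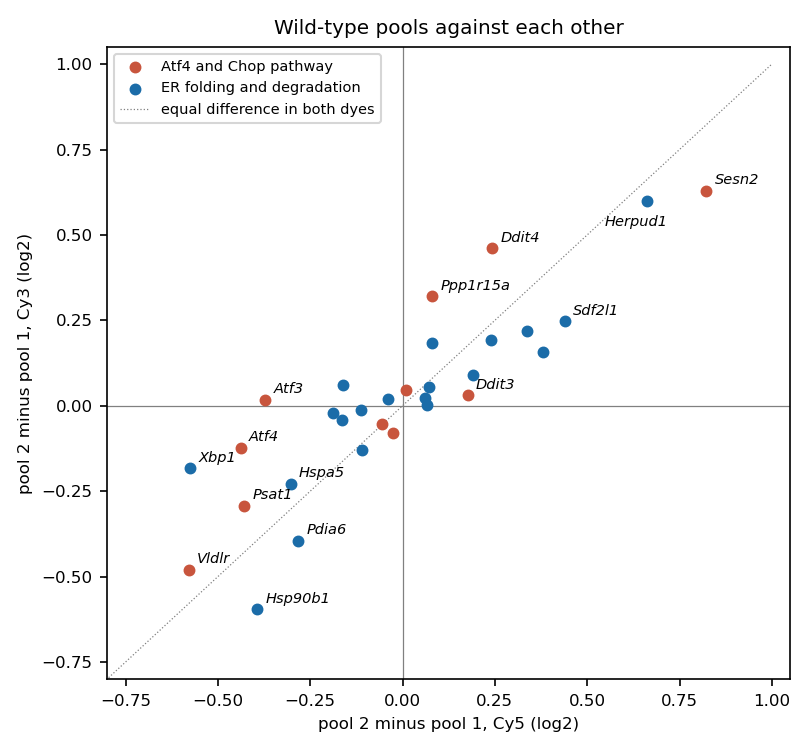
Wild-type pool 2 minus pool 1 in Cy5 (horizontal) and in Cy3 (vertical), log2, for the 31 members measured in both dyes; the dotted line marks equal differences. Sesn2 and Herpud1 lie at the top right and Vldlr and Hsp90b1 at the lower left, and 28 points have the same sign on both axes. In Cy3, pool 2 is the mean of WT_self replicate 2 and KO_vs_WT replicate 2. Each gene is shown by its brightest probe.

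The gap between the wild-type pools exceeded the gap between the knockout arrays in 23 of the 32 members, with medians of 0.21 and 0.08. For the ER genes this held in 17 of 21 and for the Atf4 and Chop genes in 6 of 11. Whether the knockout arrays carried RNA of 1 pool was not given in the sources used here.

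Pool 2 also differed from the other RNA in its markers of other cell types. The summed level of the 7 proximal tubule markers that entered was 28590 intensity units in pool 2, 3846 in pool 1, and 2657 and 1743 on the knockout arrays. The other 5 of the 12 (Lrp2, Cubn, Slc22a6, Hnf4a and Miox) did not enter. The sum for 5 loop and distal tubule markers was 9179 in pool 2, 2407 in pool 1, and 2086 and 1896 in the knockout. Pool 2 was the lowest of the 4 in erythroid and stromal markers. The sum for the 3 erythroid markers that entered was 4085 in pool 2, 11150 in pool 1, and 9682 and 7310 in the knockout. The sum for 7 stromal markers was 1809, 3490, 2891 and 2433 in the same order. The part of all these markers in the differences of Sesn2, Herpud1, Xbp1 and Atf4 against pool 2 was not tested. In pooled sorted cells, fewer cells of a type and less RNA per cell cannot be told apart.

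A list of 14 genes that respond quickly to cell handling as well as to stress, immediate early and heat shock genes, lay on the same side as Ddit4, Atf3 and Ddit3. All 13 that entered had a positive difference in each of the 4 settings of Cy5 described above. After quantile normalization their median was 0.20, and 9 (69.2%) had both knockout arrays above both pools, against 21.8% of all genes. Their summed level was 22790 and 25500 in the knockout and 18780 and 19050 in the wild type. The heat shock gene Hspa1a differed by 0.83 and Fosb by 1.09. Their part in the values of Atf3, Ddit3, Ddit4 and Ppp1r15a was not tested. The 10 principal cell markers had a median of 0.41, and their summed level was 23410 and 25890 in the knockout and 19300 and 14990 in the wild type.

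On KO_vs_WT replicate 2, where knockout and pool 2 shared the array, the 21 ER genes had a median log2 ratio of -0.19 with 8 positive, and the 11 Atf4 and Chop genes a median of 0.14 with 7 positive. Over 13436 genes measured in both dyes the median was 0.00, and 50.5% were positive. With the same RNA in both dyes, the ER medians were 0.02 and 0.03 and the Atf4 and Chop medians 0.13 and -0.01. At least 1.5-fold higher were 2 of the 32 members, Atf3 and Ddit4, against 5.96% of all genes. At least 1.5-fold lower were 2 of the 32, Herpud1 (-0.71) and Dnajc3 (-0.66), against 5.66%. The members' share was near that of all genes in each direction. On the WT_self arrays the members ranged from -0.30 to 0.27, and none reached 1.5-fold. There is 1 such array, so these ratios have no replicate, and its Cy5 channel is also part of the comparison above.

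**Figure D4:**
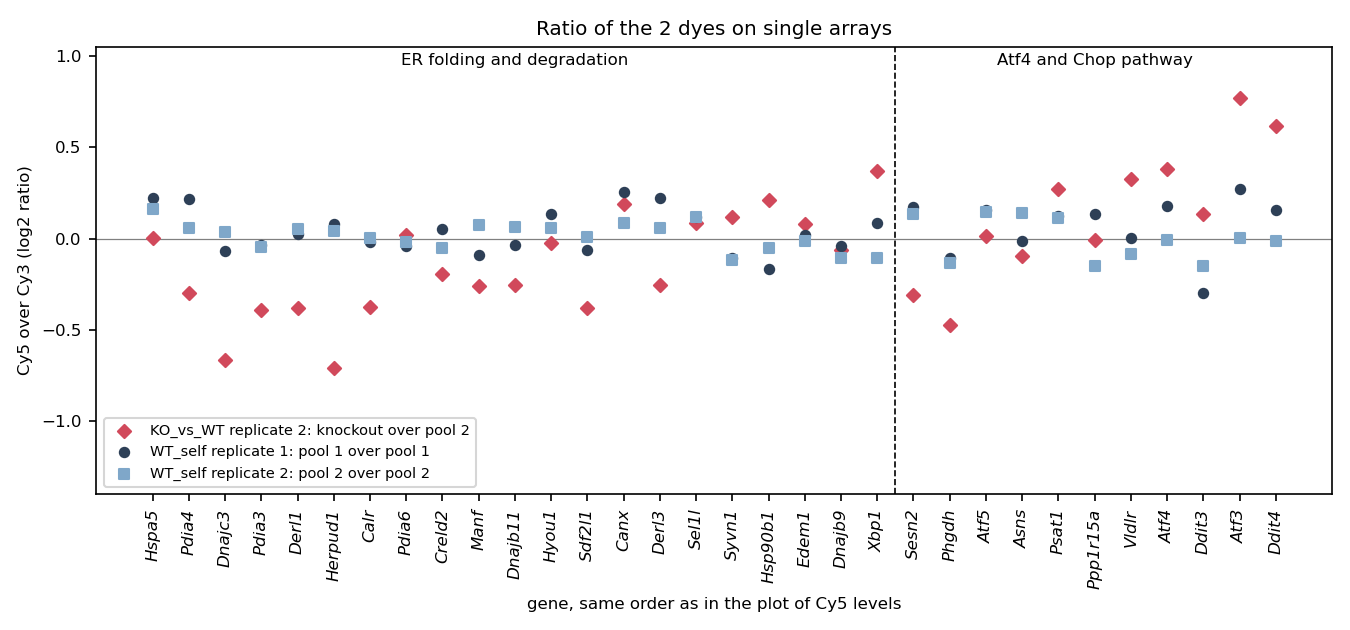
Log2 ratio of Cy5 over Cy3 on single arrays (vertical) for each gene (horizontal), with red diamonds for knockout over pool 2 and dark circles and pale squares for a wild-type pool against itself. The wild-type points span -0.30 to 0.27, and outside that span lie Herpud1, Dnajc3, Phgdh, Pdia3, Derl1, Sdf2l1, Calr and Sesn2 on the lower side and Atf3, Ddit4, Atf4, Xbp1, Vldlr and, narrowly, Psat1 on the higher side.

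Several members had more than 1 probe, and these did not always give the same side. Of 10 genes with more than 1 probe that entered, 5 had all probes on 1 side of 0 (Calr, Canx, Dnajc3, Derl1 and Phgdh) and 5 had probes on both sides (Hsp90b1, Pdia6, Dnajb9, Edem1 and Sel1l). The Calr probes gave -0.21 and -0.81. The dimmer of them read 9.43 in pool 2 and 8.40 in pool 1, against 8.17 and 8.05 in the knockout. Where each probe lies on its transcript was not analysed here.

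**Figure D5:**
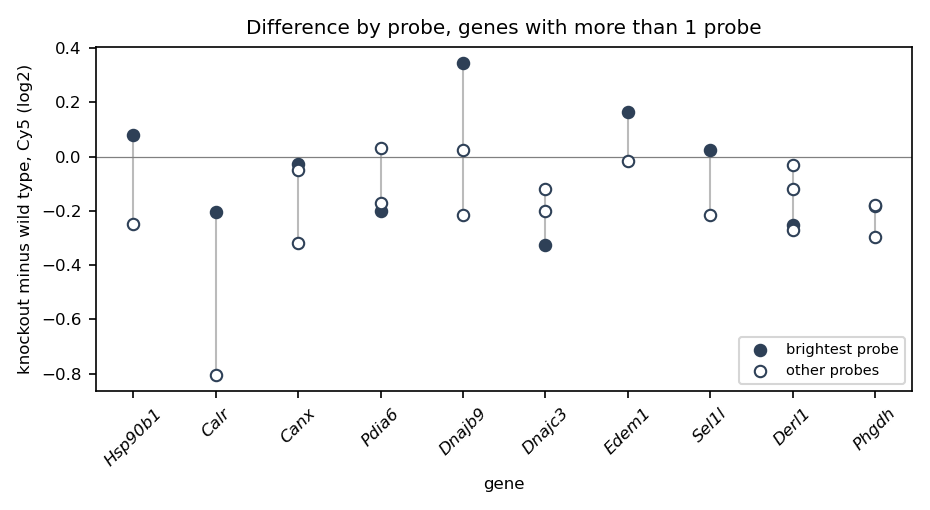
Knockout minus wild type in Cy5 (log2, vertical) for each probe of the 10 genes with more than 1 probe (horizontal); filled circles are the brightest probe, which stands for the gene, and open circles the others. The probes of Hsp90b1, Pdia6, Dnajb9, Edem1 and Sel1l lie on both sides of 0, and the Calr probes reach from -0.81 to -0.21.

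Other genes of the same pathways were counted whole. Of 42 further ER folding, translocation and degradation genes, 39 entered, of which 13 were positive and 26 negative, with a median of -0.04. With the 75th percentile scaling 27 were positive and the median was 0.07. None of the 39 had an unadjusted p below 0.05, where 3% and 1.15% of all genes did. Those with the smallest p on the positive side were Vcp, the ATPase that pulls proteins out of the ER membrane (0.26), Wfs1 (0.23) and Edem2 (0.11). On the negative side they were the signal peptidase subunits Spcs2 (-0.25) and Sec11c (-0.25) and the disulfide isomerase Txndc5 (-0.21).

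Of 44 further genes of the Atf4 pathway, the eIF2 kinases and amino acid metabolism, 34 entered, 22 positive and 12 negative, with a median of 0.05. With Agilent's processed signal the counts were 16 and 18. At an unadjusted limma p below 0.05, 2 of the 34 were higher and 1 lower, where 3% and 1.15% of all genes were. None passed after adjustment. Gdf15, a secreted stress cytokine that Atf4 and Chop can induce, read 9.72 and 10.16 in the knockout and 9.03 and 9.22 in the wild type, a difference of 0.82 ± 0.19 (SE; limma adjusted p = 0.807). Nupr1, a stress-induced chromatin protein, differed by 0.72 ± 0.21 (SE) and Vegfa by 0.56 ± 0.25 (SE), with pool 2 at 8.74 and pool 1 at 9.39 for Vegfa. The metabolic genes Gpt2 (-0.38) and Shmt2 (-0.34) and the translation repressor Eif4ebp1 (-0.25) were on the negative side.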

How the data were processed

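RNA of sorted cells was labelled with Cy5 and Cy3 and hybridised to 4 arrays. The deposited scanner files hold spot intensity as median signal and local background per dye, per the file headers from Agilent Feature Extraction 10.7.3.1, and Agilent's own processed signal. The deposited series table holds log10 ratios, equal to the scanner's LogRatio in 45018 of 45018 spots on each array. The scanner files hold median in place of mean signals, and these were used.

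Spots were corrected with normexp (offset 50) in limma 3.58.1 under R 4.3.3 and taken to log2. Cy5 was quantile-normalized over the 4 arrays; ratios within an array were loess-normalized. Control spots, outlier flags and 331 spots of a dark patch on WT_self replicate 1 were left out. A probe entered if Agilent's flag put its Cy5 well above background on 2 arrays of the same genotype, and the brightest probe stood for a gene. Accessions were named through RefSeq (GRCm38.p6): 22951 of 41174 probes had 1 symbol. The scale of a value is log2 intensity, and levels of different probes are not comparable. Knockout was tested against wild type with lmFit and eBayes, two-sided, with Benjamini-Hochberg adjustment over 16018 genes, and the procedure was tested on simulated data. Precision is limited by 2 arrays a group.

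The members and the lists were chosen with earlier results of these data known. Array values are given for the transcription factors, Hspa5 and, by rule, the 5 members with the largest absolute difference in each group; those printed for other members were chosen after the values were seen. Of the other pathway genes, up to 3 in each direction with the smallest p are named. Marker lists counted but not described were those for intercalated cells (1 positive of 6 entered), endothelium (0 of 5) and leukocytes (2 of 5). Those for stroma (5 of 7) and erythroid cells (2 of 3) were described by their summed levels. Of the ureteric bud list 7 of 13 were positive. The alternatives are given in the closing section.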

Additional observations from a re-analysis of the deposited data

How the results depend on the processing

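No gene passed under 12 of the 13 alternatives to the Cy5 fit, and leaving out single arrays gave 0 to 4466 genes. The median of the ER genes was 0.022 with the 75th percentile scaling (all genes -0.017) and ranged from -0.088 to -0.18 when 1 array was left out; under the other 8 alternatives it kept its sign. The median of the Atf4 and Chop genes was 0.31 with the 75th percentile scaling, -0.017 with log ratios of all 4 arrays, which include the array with 28 Cy3 probes above background, and 0.12 to 0.31 when 1 array was left out. On the shared array the ER median was -0.21 with offset 16, -0.16 after subtracting the WT_self array of pool 2, and 0.48 with median centring in place of loess, which moved all genes to 0.46. The Atf4 and Chop median there was 0.75 with median centring and 0.24 with Agilent's log ratio. The causes were not tested. Of 416 values of a member under an alternative, 380 kept their direction, and 15 of 32 members kept it under all 13. Directions turned for the following members. With the 75th percentile scaling, Canx was 0.16, Pdia6 0.024, Dnajb11 0.089, Sdf2l1 0.022, Creld2 0.10, Manf 0.014, Hyou1 0.050, Derl3 -0.086, Atf5 0.092 and Asns 0.16. With Agilent's processed signal, Hsp90b1 was -0.14, Canx 0.14, Atf5 0.037 and Ppp1r15a -0.031. With the mean of all probes, Hsp90b1 was -0.085 and Sel1l -0.096. With 7 channels and the pool as a random block, Derl3 was -0.0016. With log ratios, Pdia6 was 0.035, Sel1l -0.053, Derl3 -0.25, Ppp1r15a -0.017 and Psat1 -0.017. When 1 array was left out, the values of the members that turned ranged from -0.12 to 0.28 for Hsp90b1, -0.12 to 0.065 for Canx, -0.56 to 0.11 for Herpud1, -0.30 to 0.14 for Sdf2l1, -0.33 to 0.056 for Manf, -0.0099 to 0.056 for Sel1l, -0.27 to 0.28 for Derl3, -0.037 to 0.024 for Asns, -0.70 to 0.12 for Sesn2, -0.063 to 0.37 for Psat1 and -0.071 to 0.51 for Vldlr. For Herpud1, Sdf2l1, Manf, Sesn2, Psat1, Vldlr and Hsp90b1 the array that turned them was WT_self replicate 2. With the replicate number as a block, 0 genes passed and no member turned; the number names the wild-type pool, which on the KO_vs_WT arrays is in Cy3 and not in the Cy5 compared, and the Cy5 deviations of same-numbered arrays correlated at 0.039. With Agilent's processed signal Asns was at -0.35.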
